A study of Mus musculus with 10 samples.

Results

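40 genes of ribosome biogenesis and the nucleolus were followed in gastrocnemius, a calf muscle, of mice that accumulate mitochondrial DNA mutations. The 40 genes were listed by symbol, and all array probe sets annotated to exactly 1 of them were taken, which gave 82 of the 45037 probe sets that are not array controls. Of 18193 genes with such a probe set, 11216 were bright enough to test by the brightest one, and all 40 members were among them. Of the 82 probe sets, 73 passed the filter on dim signals, which kept the probe sets whose mean log2 signal over all mice was above the median and did not use the genotypes.

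The comparison asked how expression differs in muscle when the mitochondrial polymerase lacks proofreading. The D257A group held 5 male mice homozygous for the PolgD257A knock-in allele of polymerase γ, and the WT group held 5 male wild-type mice. All were 13 months old and untreated as far as the labels say, and the colony came from a mixed 129Sv/ICR/B6 background crossed back to C57Bl/6J. The change is in every cell of the body and was not restricted to muscle fibres. Whole muscle of each mouse was hybridized to 1 Affymetrix Mouse Genome 430 2.0 array, without pooling. D257A mice are named 2-17M, 2-21M, 2-25M, 2-27M and 2-30M, and WT mice 1-12M, 1-13M, 2-3M, 2-32M and 3-18M, and signals, on a linear scale after each array was scaled to a trimmed mean of 500, are given in these orders. In bulk muscle, fewer cells of a type and less RNA per cell cannot be told apart.

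Ribosomes are built in the nucleolus, where RNA polymerase I transcribes the long precursor of most ribosomal RNAs. Small nucleolar RNPs modify the precursor, and separate sets of assembly factors fold and cut it into the small (40S) and large (60S) subunits. The transcription factor Myc is known as an activator of polymerase I and of many of these genes, and muscle raises ribosome production when it grows or regenerates.

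All 10 mice expressed the muscle fibre markers: 12 of 12 such genes passed the filter, with summed signals of 560803 to 593744 in D257A mice and 492320.0 to 646777 in WT mice. A line of the extraction protocol names cochlea as the source of RNA, but 9 of 12 cochlea markers were below the filter. The leading digit of the mouse number is not explained by the labels. All 5 D257A mice carry a 2 there, as do 2 WT mice, so the digit and the genotype are partly confounded. WT mouse 1-13M stood apart in these genes. It had the highest signal of the 10 mice in 23 of the 40 genes (57.5%), against 17.6% of all tested genes, and the highest of the WT mice in 34 (85.0%, against 29.1%). Its deposited signals also had the highest trimmed mean, 128.7, against 93.4 to 116.0 in the other mice, and limma gave its array the lowest weight, 0.283. Each main result is therefore given with and without this mouse. Leaving it out was a choice made after the values were seen. It was the highest WT mouse in most of these genes, so leaving it out was bound to lower their WT mean. A gain toward D257A was thus built in. All tested genes are no like measure of that gain, as 1-13M was the highest WT mouse in 29.1% of them.

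With all 10 mice, 2 of the 40 genes were higher in D257A, Npm1 and Myc, and 0 were lower (limma, adjusted p under 0.05). That is 5.00% of the genes, where 3.71% of all tested genes were higher and 3.52% were lower. By probe set, 3 of 73 were higher, against 3.64% of all tested probe sets, and 0 were lower. At an unadjusted p under 0.05, limma gave 7 genes higher and 0 lower, and the methods' t-test gave 6 higher and 0 lower. These are 17.5% and 15% higher, where limma gave 11.1% of all tested genes higher and 11.7% lower and the methods' t-test 10.8% and 11.2%. The methods' t-test left 1 gene higher and 0 lower after adjustment. In 1 gene, Npm1, every D257A mouse lay above every WT mouse, where 3.93% of all tested genes had such a separation.

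The median log2 difference of the 40 genes, D257A minus WT, was 0.19, and 30 of the 40 differences were above 0. Over all 18193 genes the median was -0.05, and 8216 differences were above 0. Of these genes 6977 were too dim to test, while all 40 members were tested. The median was -0.03 over the tested probe sets and 0.01 over the brightest 11259 probe sets, which represent 35 members. Both lie closer to the members' median than that of all genes. The count of members above 0 depended on how arrays were scaled, with 27 on the deposited signals and 37 when each array was centred on its median. Centring moved the median difference of all genes by 0.134, from -0.05 to 0.09. Scaling and centring shift every gene of an array alike on the log2 scale, so the gap between the members and all genes, 0.24, could not change. It was 0.18 with quantile normalization and 0.21 with an offset added to the signal. Among all tested probe sets, 49.3% of the calls were higher in D257A as scaled here, 29.4% without scaling and 79.3% with median centring.

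Without WT mouse 1-13M, 13 of the 40 genes were higher and 0 were lower. At an unadjusted p under 0.05 the counts were then 21 and 0, or 52.5% higher, against 15.1% higher and 16.2% lower of all tested genes. The share of 32.5% called after adjustment stood beside 7.76% of all tested genes that were higher and 8.33% that were lower under the same fit. The 13 genes were Npm1, Ncl, Nolc1, Polr1c, Myc, Nop56, Wdr43, Nop14, Pes1, Rrs1, Nip7, Gnl3 and Ddx21. The median log2 difference was then 0.31. In 13 genes every D257A mouse lay above all 4 remaining WT mice, against 8.15% of all tested genes, and Noc2l took the place of Nolc1 in that count. With the 5 D257A and 2 WT mice numbered 2 alone, which also leaves out 1-13M, 5 genes (12.5%) were higher (Npm1, Ncl, Nop56, Rrs1 and Myc), against 4.38% of all tested genes. With WT mouse 1-12M left out instead of 1-13M, 1 gene (2.5%) was higher, against 2.14% of all tested genes. The median log2 difference of the members was then 0.15.

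**Figure D1:**
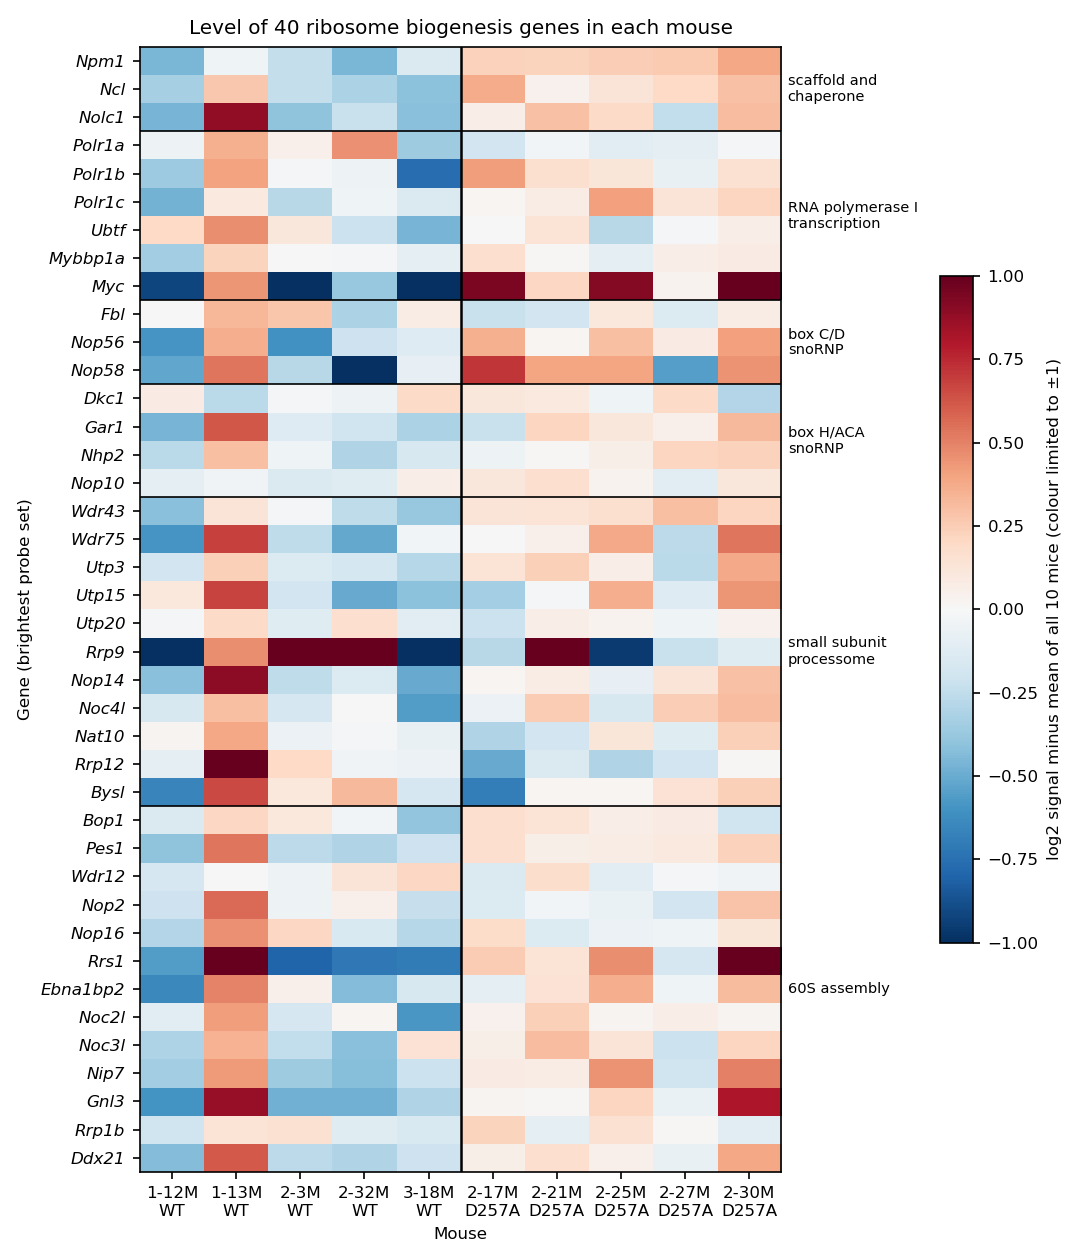
Heat map of the log2 scaled signal of each of the 40 genes (rows, grouped by role) in each of the 10 mice (columns, WT left), minus the mean of all 10 mice, with colour limited to ±1. The column of WT mouse 1-13M holds the highest value in 23 rows, while the other 4 WT mice are above the mean of all mice in 5 to 11 rows and the D257A mice in 17 to 34.

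The promoters were searched for CACGTG, the E-box to which Myc and Max bind, on both strands (the motif reads the same on each). Windows of 250 bases before to 50 after the gene start came from RefSeq on GRCm38.p6. Of the 40 genes 34 had a window. Npm1, Fbl, Bop1, Rrp12, Rrs1 and Myc had none. The motif was in 5 of 34 genes (14.7%), in 24 of 109 other ribosome biogenesis genes with a window (22.0%) and in 8.91% of all protein-coding genes. These stretches show the motif in capitals with up to 20 bases on each side, cut at the end of the window, for the 5 members that hold it.
Mybbp1a, chr11:72441347-72441376, plus strand: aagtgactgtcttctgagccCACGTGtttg
Nop2, chr6:125131803-125131848, plus strand: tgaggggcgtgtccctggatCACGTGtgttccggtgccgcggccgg
Pes1, chr11:3963957-3964002, plus strand: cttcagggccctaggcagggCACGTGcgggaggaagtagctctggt
Utp20, chr10:88826765-88826797, minus strand: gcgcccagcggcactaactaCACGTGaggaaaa
Wdr43, chr17:71616212-71616257, plus strand: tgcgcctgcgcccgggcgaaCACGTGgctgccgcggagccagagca

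In Nop2 the motif begins 60 bases before the gene start. In the other 4 it lies in the first bases after the start, beginning at base 3 in Pes1, 18 in Wdr43, 38 in Utp20 and 41 in Mybbp1a. Of these 5 genes 0 were called by limma or the methods' t-test with all mice, and Pes1 and Wdr43 passed without 1-13M, while Nop2, Utp20 and Mybbp1a passed in neither fit. Wdr43 alone of the 5 had an unadjusted p under 0.05 with all mice.

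The nucleolar scaffold and chaperone genes held the member with the smallest adjusted p. Npm1 encodes nucleophosmin, an abundant nucleolar protein that escorts ribosomal proteins and shapes the nucleolus. Its brightest probe set, 1415839_a_at, read 12891, 12809, 13067, 13212 and 14351 in D257A mice. In WT mice it read 7992, 10653, 9332, 7995 and 9927. The lowest D257A mouse lay above the highest WT mouse, which was 1-13M. Npm1 rose 1.45-fold (log2 0.54 ± 0.10, SE, n = 5 per genotype; limma adjusted p = 0.00505). This call held under every alternative run on it, with adjusted p from 0.000252 to 0.0454.

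The dimmer Npm1 probe set, 1432416_a_at, read 5230, 6174, 5294, 4849 and 6373 in D257A mice and 2936, 5198, 3869, 2969 and 2816 in WT mice. Here 1-13M lay inside the D257A range, and the other 4 WT mice lay below it. The log2 difference was 0.68 ± 0.16 (SE, limma adjusted p = 0.0211). This second call was lost without D257A mouse 2-30M (adjusted p = 0.0532), WT mouse 1-12M (0.0613) or WT mouse 2-32M (0.0581), and was kept without 1-13M (0.000426). It was also lost without scaling (0.100), with no variance trend (0.0508), by the methods' t-test (0.0791) and with mouse series as a block (0.0881).

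Ncl encodes nucleolin, which binds nascent ribosomal RNA. Its brightest probe set, 1415771_at, read 12285, 9804, 10428, 10908 and 11692 in D257A mice. In WT mice it read 7569, 11477, 8071, 7649 and 7150.5. The genotypes overlapped through 1-13M alone. Ncl had a log2 difference of 0.41 ± 0.12 (SE, limma adjusted p = 0.0599), and 0.53 without 1-13M (adjusted p = 0.00107). A dimmer Ncl probe set, 1415772_at, read 720 to 801 in D257A mice and 445 to 665 in WT mice. Its groups did not overlap even with 1-13M, which was not the highest WT mouse there, and its adjusted p was 0.0852. The second brightest Ncl probe set, 1415773_at, had a log2 difference of 0.18 (limma adjusted p = 0.551), and 0.32 without 1-13M (adjusted p = 0.087). Of the 5 Ncl probe sets, 1442404_at had a difference of the other sign, -0.36 on the log2 scale (adjusted p = 0.269).

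Nolc1 encodes a chaperone that carries small nucleolar RNPs between nucleolus and Cajal bodies. The brightest of its probe sets read 647, 757, 702, 521 and 762 in D257A mice and 447, 1136, 467, 529 and 461 in WT mice. WT mouse 1-13M exceeded every other mouse, and D257A mouse 2-27M fell among the remaining WT mice. Nolc1 had a log2 difference of 0.25 with all mice (adjusted p = 0.561) and 0.50 without 1-13M (adjusted p = 0.0263). A dimmer Nolc1 probe set, 1428870_at, had 0.46 (limma adjusted p = 0.121), and 0.62 without 1-13M (adjusted p = 0.00491). Another, 1450087_a_at, had the other sign with all mice, -0.09 (limma adjusted p = 0.88).

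Among the genes of polymerase I and its regulators, Myc had the largest difference of the 40 members. Its probe set, 1424942_a_at, read 506, 304, 497.5, 270.1 and 767.5 in D257A mice. In WT mice it read 139, 357, 81.3, 203 and 125. The genotypes overlapped because 1-13M exceeded D257A mice 2-21M and 2-27M, and the 4 other WT mice lay below all D257A mice. Myc rose 2.74-fold (log2 1.46 ± 0.36, SE, limma adjusted p = 0.0274).

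The Myc difference stayed between 1.21 and 1.75 on the log2 scale with each mouse left out, but its adjusted p was close to the threshold. The call was lost without D257A mouse 2-17M (adjusted p = 0.0709), 2-25M (0.0671) or 2-30M (0.067), and without WT mouse 1-12M (0.0684), 2-3M (0.0672) or 3-18M (0.0541). It was kept without 1-13M, with a log2 difference of 1.75 (adjusted p = 0.00179). It was also lost without scaling (0.0519), with no variance trend (0.0529), by the methods' t-test (0.113) and with mouse series as a block (0.0718). Of the genes for Myc's partners and antagonists, 8 of 10 passed the filter and 0 were called by limma or the methods' t-test. At an unadjusted p under 0.05 each test gave 0 higher and 1 lower. That gene, Max, the dimerization partner of Myc, had a limma log2 difference of -1.11 (adjusted p = 0.0745), and -0.89 without 1-13M (adjusted p = 0.0991). Its signals were dim and overlapped, at 38.65 to 132.8 in D257A mice and 91.08 to 278.2 in WT mice.

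Polr1a and Polr1b encode the large catalytic subunits of polymerase I. Polr1b read 719, 602, 586, 512 and 597 in D257A mice and 419.5, 710.1, 535, 520.0 and 318 in WT mice. The WT range covered nearly all of the D257A range, and the log2 difference of 0.31 did not pass (adjusted p = 0.348; 0.0815 without 1-13M). The brightest Polr1a probe set had a difference of -0.18 (adjusted p = 0.523), and a dimmer tested one had the opposite sign, 0.21 (adjusted p = 0.538). Polr1c encodes a subunit that polymerases I and III share. It read 978 to 1282 in D257A mice and 698 to 1032 in WT mice, with 1-13M the highest WT mouse. Its log2 difference was 0.34 (adjusted p = 0.142), and 0.40 without that mouse (adjusted p = 0.0437). A dimmer Polr1c probe set, 1417041_at, had 0.24 (limma adjusted p = 0.336), and 0.35 without 1-13M (adjusted p = 0.0719).

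Ubtf encodes the factor that holds ribosomal DNA open for transcription. It read 909, 999, 750, 903 and 953 in D257A mice and 1045, 1255, 987, 785 and 660.5 in WT mice. The WT mice spanned the whole D257A range, and the log2 difference was -0.04 ± 0.17 (SE, adjusted p = 0.915), with a change of sign under median centring (0.09) and without 1-13M (0.07). Mybbp1a, whose nucleolar product binds Myb and represses polymerase I, had a difference of 0.09 (adjusted p = 0.675).

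**Figure D2:**
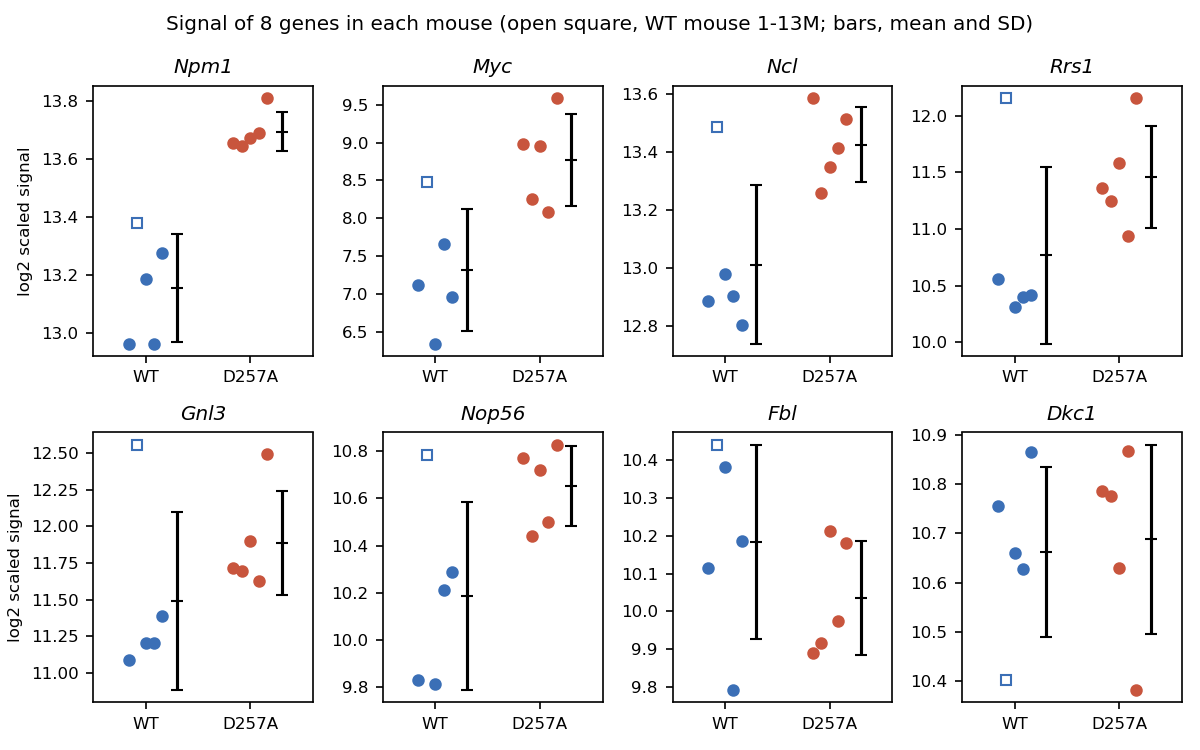
Log2 scaled signal of the brightest probe set of 8 genes in each WT (blue) and D257A (red) mouse, with the mean and SD of the 5 mice per genotype at the right of each group; each panel has its own axis, which does not start at 0. The open square is WT mouse 1-13M, which lies among or above the D257A mice for Myc, Ncl, Rrs1, Gnl3 and Nop56, below all of them for Npm1, and near the bottom for Dkc1.

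The box C/D small nucleolar RNPs place methyl groups on ribosomal RNA, and their core genes had differences of both signs. With all mice, 0 of the 3 were called by limma or the methods' t-test, and at an unadjusted p under 0.05 each gave 1, Nop56. Nop56, a scaffold of the particle, read 1748, 1390.1, 1688, 1448 and 1817 in D257A mice. In WT mice it read 910, 1765, 901, 1187 and 1251. The 4 WT mice other than 1-13M lay below every D257A mouse. The log2 difference was 0.47 ± 0.17 (SE, limma adjusted p = 0.122), and 0.62 without 1-13M (adjusted p = 0.00731). The dimmer Nop56 probe set gave similar values, 0.43 (adjusted p = 0.109) and 0.57 (adjusted p = 0.00437).

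Nop58, the partner scaffold, had a log2 difference of 0.56 ± 0.29 (SE, adjusted p = 0.263), with D257A mouse 2-27M at 136.5, among the WT mice. Fbl encodes fibrillarin, the methyltransferase of the particle. It read 949, 966, 1187, 1006 and 1160.5 in D257A mice and 1109, 1391, 1336, 886 and 1164 in WT mice. The groups overlapped throughout, and the log2 difference was -0.15 ± 0.14 (SE, adjusted p = 0.564), or -0.08 without 1-13M (adjusted p = 0.718). Fbl kept its negative sign under each scaling run, from -0.22 to -0.01.

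The box H/ACA RNPs convert uridines of ribosomal RNA to pseudouridine, and 0 of their 4 core genes were called with or without 1-13M (limma). With all mice the count at an unadjusted p under 0.05 was also 0 by limma and by the methods' t-test. Dkc1 encodes dyskerin, the pseudouridine synthase. It read 1765, 1755, 1584, 1869 and 1334 in D257A mice and 1729.9, 1353.5, 1618, 1582.5 and 1865 in WT mice. The genotypes covered almost the same range, and here 1-13M was the lowest WT mouse. Dkc1 had a log2 difference of 0.03 ± 0.13 (SE, adjusted p = 0.928), and its sign turned without scaling (-0.05) and without 1-13M (-0.04). Gar1 (0.19), Nhp2 (0.19) and Nop10 (0.13), the other proteins of the core, had small positive differences that did not pass.

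The genes of the small subunit processome, which folds and cuts the 18S part of the precursor, and of later 40S steps numbered 11. None of the 11 was called by limma with all mice, and 6 had a positive and 5 a negative difference. Wdr43, one of the E-box genes and a subunit of the complex that first binds the nascent precursor, read 1936, 1951, 1983, 2189 and 2053 in D257A mice and 1324, 1939, 1757.5, 1483.5 and 1364 in WT mice. WT mouse 1-13M lay just inside the D257A range. Wdr43 had a log2 difference of 0.38 (adjusted p = 0.0827), and 0.46 without it (adjusted p = 0.0118). A dimmer Wdr43 probe set, 1428390_at, had 0.11 (limma adjusted p = 0.677), and 0.24 without 1-13M (adjusted p = 0.145). By brightest probe set, Wdr43 alone of these 11 genes had an unadjusted p under 0.05 with all mice, by limma and by the methods' t-test.

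Nop14, which joins the processome with Noc4l, read 905, 944, 846, 975 and 1094 in D257A mice and 668, 1660.3, 749, 811.5 and 630.2 in WT mice. Its highest mouse was 1-13M by a wide margin, and the other WT mice lay below all D257A mice. The log2 difference moved from 0.17 (limma adjusted p = 0.69) to 0.42 (adjusted p = 0.035) without that mouse. Noc4l itself had a difference of 0.24 on its brightest probe set (adjusted p = 0.414). A dimmer one, 1443794_x_at, separated the genotypes, at 540 to 718 in D257A mice and 447 to 509 in WT mice, without passing the test (adjusted p = 0.103).

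Rrp12, an export and maturation factor of 40S precursors, had the lowest difference of the 40 genes. It read 474, 609, 545.5, 589 and 675 in D257A mice and 627, 1456, 769.8, 657 and 645 in WT mice. The groups overlapped in 2-30M alone, and 1-13M was again far above the rest. The genotype difference in log2 was -0.45 ± 0.21 (SE, limma adjusted p = 0.216), and -0.23 without 1-13M (adjusted p = 0.273). Wdr75 (0.28), Utp3 (0.22) and Utp15 (0.13), also processome proteins, had positive differences that did not pass. A dimmer Utp15 probe set, 1454846_at, had 0.54 (limma adjusted p = 0.127, and 0.0462 without 1-13M). Utp20 (-0.05), Rrp9 (-0.02), Nat10 (-0.10) and Bysl (-0.11) had negative differences, and each of these 4 turned positive under median centring. A dimmer Bysl probe set, 1450742_at, had the other sign, 0.43 (limma adjusted p = 0.0904, and 0.039 without 1-13M). Rrp9, a protein of the U3 particle, scattered most, from 23.4 to 266 over the WT mice alone. Its signal was near the filter, with a mean log2 of 6.35 where the dimmest tested probe set had 6.26.

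The 60S assembly factors were the largest group, with 13 genes, 11 of them with positive differences and 0 called by limma with all mice. At an unadjusted p under 0.05, limma gave 1 of them, Rrs1, and the methods' t-test 0. Rrs1, which helps to place the 5S RNP in the 60S precursor, read 2634, 2435.5, 3063.5, 1966.5 and 4553 in D257A mice. In WT mice it read 1504, 4559, 1274, 1350.1 and 1365. The 4 other WT mice lay close together below all D257A mice, and 1-13M was level with the highest D257A mouse, 2-30M. Rrs1 had a log2 difference of 0.69 ± 0.32 (SE, limma adjusted p = 0.207), and 1.04 without 1-13M (adjusted p = 0.00205).

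Gnl3 encodes nucleostemin, a nucleolar GTPase of dividing and stem cells. It read 3361, 3322, 3824, 3158 and 5777 in D257A mice and 2175, 6020.5, 2363, 2364 and 2682 in WT mice. The pattern was that of Rrs1, with 1-13M and 2-30M both far above the other mice of their genotype. Gnl3 had a log2 difference of 0.40 ± 0.25 (SE, adjusted p = 0.366), and 0.66 without 1-13M (adjusted p = 0.0102).

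Pes1, Bop1 and Wdr12 encode the 3 proteins of the PeBoW complex, which is needed to process the 60S precursor, and their genes differed in value. Pes1, whose promoter holds the E-box at the start, read 1100.3 to 1236 in D257A mice and 799 to 1528 in WT mice, and 913 was the highest WT signal beside that of 1-13M. Its log2 difference was 0.25 (adjusted p = 0.370), and 0.42 without 1-13M (adjusted p = 0.0148). Bop1 had 0.10 (adjusted p = 0.712) and Wdr12 -0.05 (adjusted p = 0.849), and neither passed without 1-13M (0.436 and 0.808).

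Nip7, a factor of late nucleolar 60S steps, and the RNA helicase Ddx21 were, like Pes1, past the threshold without 1-13M and not in the fit of all mice at equal weight. With array weights on all 10 mice, Nip7 (limma adjusted p = 0.0273) and Pes1 (0.0351) passed. That fit counted 1-13M least, at a weight of 0.283, so it is not separate from leaving the mouse out. Of all tested genes 8.89% were higher in it. Nip7 had a difference of 0.37 (adjusted p = 0.242), and 0.52 without 1-13M (adjusted p = 0.0264). Ddx21 had 0.24 (adjusted p = 0.461), and 0.42 without 1-13M (adjusted p = 0.0267). A dimmer probe set of each had the opposite sign with all mice, -0.09 for Nip7 and -0.29 for Ddx21. The other 6 genes, Ebna1bp2 (0.28), Noc3l (0.19), Noc2l (0.16), Rrp1b (0.07), Nop16 (0.03) and the 28S rRNA methyltransferase gene Nop2 (-0.05), did not pass in either fit by their brightest probe set. A dimmer Noc2l probe set, 1436136_at, had 0.71 (limma adjusted p = 0.109), and 0.94 without 1-13M (adjusted p = 0.0108). The signs of Nop2 and Wdr12 turned under median centring, and those of Nop16 and Rrp1b without scaling.

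**Figure D3:**
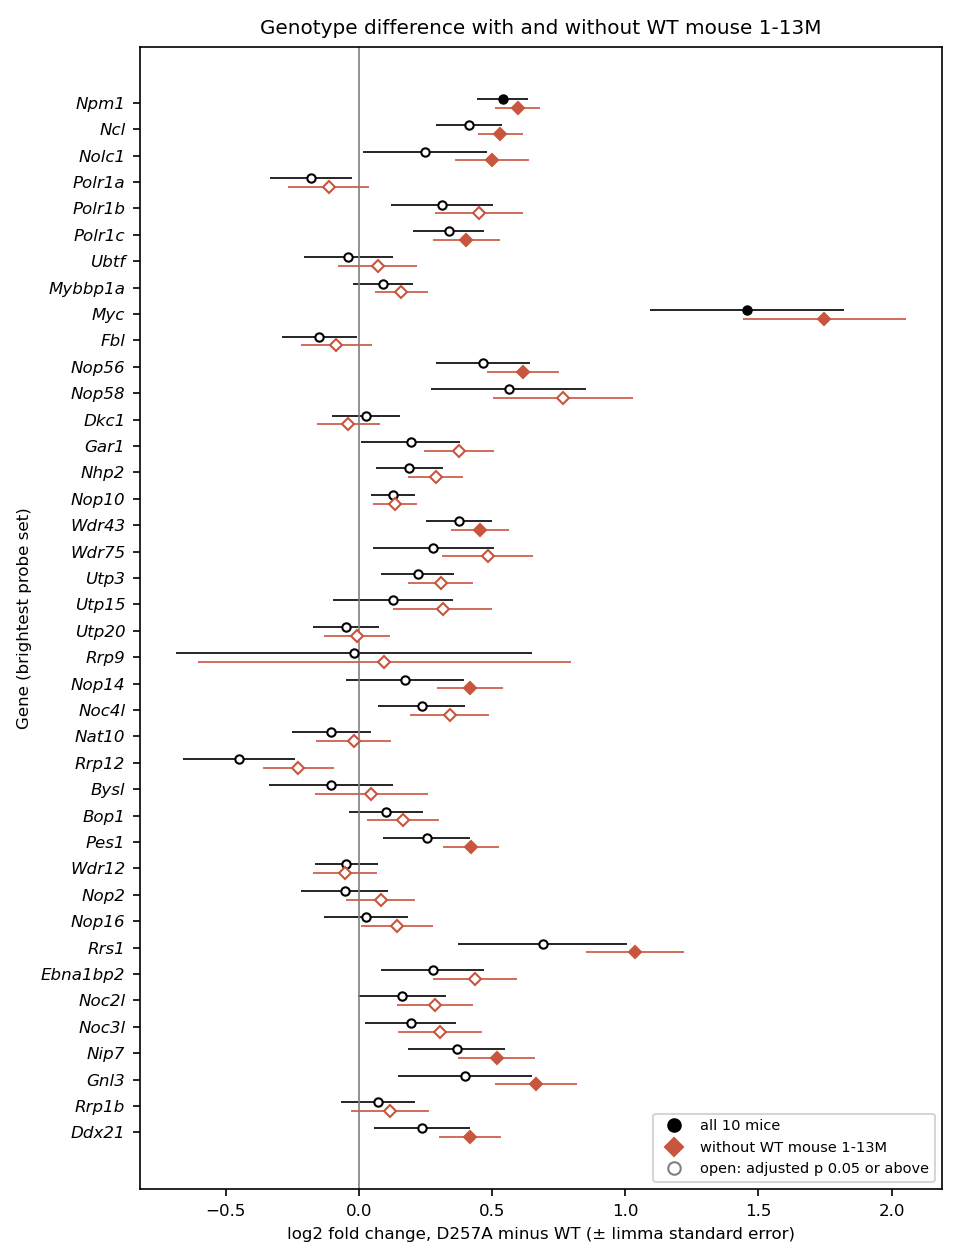
Log2 fold change, D257A minus WT, of the brightest probe set of each of the 40 genes with its limma standard error, for all 10 mice (black circles) and without WT mouse 1-13M (red diamonds); filled symbols have an adjusted p under 0.05. Filled circles mark 2 genes, Npm1 and Myc, and filled diamonds mark 13, all to the right of 0.

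By role, the median log2 difference with all mice was 0.41 for the scaffold genes, 0.20 for polymerase I, 0.47 for box C/D, 0.16 for box H/ACA, 0.13 for the small subunit genes and 0.19 for 60S assembly. Without 1-13M the medians were 0.53, 0.28, 0.62, 0.21, 0.31 and 0.31 in the same order. In that fit 0 of the 4 box H/ACA genes were called, with adjusted p of 0.0676 for Gar1 and 0.0721 for Nhp2, and 2 of the 4 were higher at an unadjusted p under 0.05. Of 25 members with at least 2 tested probe sets, 16 had the same sign in all of them and 9 did not (Bysl, Ddx21, Ebna1bp2, Ncl, Nip7, Noc3l, Noc4l, Nolc1 and Polr1a).

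Among the D257A mice, 2-30M was the highest of its genotype in 21 of the 40 genes (52.5%), against 23.8% of all tested genes. Of the WT mice, 1-12M was the lowest of all 10 mice in 14 genes and 3-18M in 11. The median level of the 40 genes relative to the mean of all mice was 0.41 in 1-13M on the log2 scale, from -0.34 to -0.13 in the other WT mice and from -0.04 to 0.24 in D257A mice.

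A second list held 134 other genes of ribosome production, of which 132 had a probe set of their own and 129 were tested. Of these 4 were higher and 1 was lower in D257A (limma), against the 3.71% and 3.52% of all genes given above, and 124 were not called. Nsa2, a 60S assembly factor, read 4035, 3752, 4051, 3612 and 3717 in D257A mice and 2712, 2784, 2984, 2610.5 and 2527 in WT mice. The genotypes did not overlap, and 1-13M lay inside the WT range (log2 difference 0.49 ± 0.09, SE, adjusted p = 0.00654). Riok3, a kinase of 40S maturation, read 11239 to 13102 in D257A mice and 7559 to 10631 in WT mice. Here 1-13M was the lowest of all mice (log2 difference 0.42, adjusted p = 0.0187). With mouse series as a block neither call held, at an adjusted p of 0.0687 for Nsa2 and 0.0725 for Riok3.

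Exosc1 (0.59, adjusted p = 0.0287) and Exosc8 (0.52, adjusted p = 0.0424), which encode subunits of the RNA exosome that trims ribosomal RNA, were also higher. Wdr18, of the complex that releases the 60S precursor from the nucleolus, was lower (-0.82, adjusted p = 0.0371). The calls of Exosc1, Exosc8 and Wdr18 were lost when most single mice were left out (9, 7 and 7 of the 10), with adjusted p up to 0.0812, 0.113 and 0.095. Without 1-13M, 23 of these genes were higher and 1 was lower, where 7.76% of all tested genes were higher and 8.33% were lower. WT mouse 1-13M was the highest of all mice in 64 of the 129 (49.6%), against 17.6% of all tested genes. It was the highest WT mouse in 72.1% of the list, so a gain toward D257A without it was built in here as well.

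**Figure D4:**
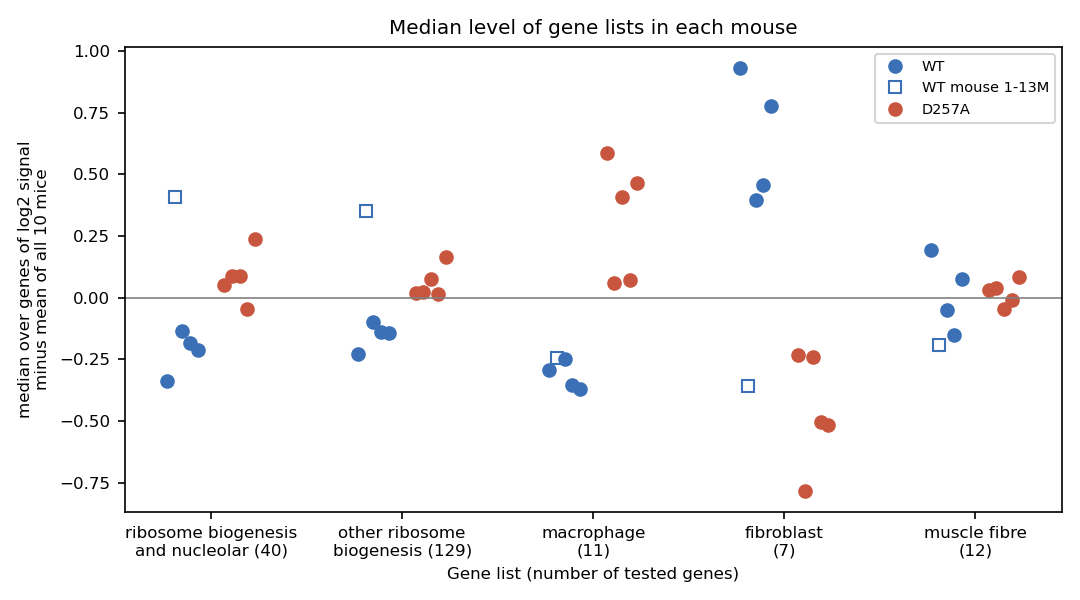
Median over the tested genes of a list of the log2 scaled signal minus the mean of all 10 mice, for each WT (blue) and D257A (red) mouse; the open square is WT mouse 1-13M. For both ribosome biogenesis lists 1-13M lies above every other mouse, at 0.41 and 0.35, while for macrophage markers it lies with the WT mice, at -0.25, and for fibroblast markers with the D257A mice, at -0.36.

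Some markers of other cells in muscle also differed by genotype. Of 12 macrophage markers, 11 were tested and 7 were higher in D257A, with summed signals of 10859 to 16048 in D257A mice and 8205 to 9352 in WT mice. WT mouse 1-13M was at 8855, within the WT range. The count of 7 was 4 without D257A mouse 2-30M or WT mouse 1-12M, with the mice numbered 2 alone and with mouse series as a block, as Lyz2, Cd163 and Tyrobp lost their calls. Among 7 fibroblast markers, 4 were lower (Col1a1, Col1a2, Col3a1 and Fn1), and Pdgfra (-0.04), Dcn (-0.08) and Lum (-0.48) were not called. The sums over the 7 were 21510.2 to 25593.5 in D257A mice and 21669.7 to 36072 in WT mice, where 1-13M was the lowest WT mouse. Dcn made up most of each sum, at 16805 to 19582 in D257A mice and 17348.5 to 21028 in WT mice. The count of 4 was 1 without WT mouse 1-12M, by the methods' t-test and with the block, and 2 without WT mouse 2-3M, 2-32M or 3-18M or with no variance trend. Of 9 proliferation markers with a probe set, 7 were below the filter, Mki67 and Top2a included, and of the 2 tested 0 were called or had an unadjusted p under 0.05 (limma and the methods' t-test). Of the tested endothelial markers 1 of 7 was higher, and of the adipocyte markers 1 of 4. None of the 4 tested satellite cell markers was called, and at an unadjusted limma p under 0.05, 1 was higher and 1 was lower. The 1 tested red blood cell marker and the 1 tested lymphocyte marker were not called. At an unadjusted limma p under 0.05 the first was higher and the second lower. The part of these cells in the levels of the ribosome biogenesis genes was not tested.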

How the data were processed

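The authors' deposited intensity values, 1 linear signal per probe set and array, were made with GCOS 1.3 per the labels. Which signal algorithm GCOS ran is not stated in the sources read. The study's methods give a scaling target of 500, but the trimmed means of the deposited columns (2% left out at each end) were 93.4 to 128.7, so each array was scaled to 500 and log2 was taken. After 64 AFFX controls were set aside, the 22518 of 45037 probe sets above the median mean signal entered a limma 3.58.1 fit (R 4.3.3, eBayes with a mean-variance trend, n = 5 per genotype, 1 array per mouse), with Benjamini-Hochberg adjustment over all of them and calls at an adjusted p under 0.05. The fit was tested on simulated data. Genes were named from the platform annotation, in which 34945 probe sets have 1 gene, 932 several and 9160 none, and each gene is represented by the brightest one naming it alone. Genes in the text are all 40 members by role, with the value of every mouse for called and separated members and for a fixed few (Npm1, Ncl, Fbl, Dkc1, Polr1b, Ubtf, Gnl3 and Myc), and the called genes of the second list. Nop56, Nolc1, Rrs1, Wdr43, Nop14, Rrp12 and the promoter stretches were picked once values were known. The members and lists were chosen with earlier results of these data known. Alternatives covered scaling, the filter on dim probe sets, the variance trend, array weights, an offset of 32, the methods' equal-variance test on log2 signals, mouse series and each mouse left out. The number of arrays limits the precision.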

Additional observations from a re-analysis of the deposited data

Results flagged for a closer look

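Within each genotype of 5 mice, the gap of the highest or lowest mouse to its neighbour was divided by the range of log2 signals for each of the 40 genes, and ratios above 0.71 were listed. Chance gives such a gap in about 5% of groups, and 16 of 80 had one. WT mouse 1-13M was the highest WT mouse in 11 of these: Ncl (0.744), Nop14 (0.739), Pes1 (0.795), Utp3 (0.721), Rrp12 (0.756), Rrs1 (0.87), Nolc1 (0.82), Nip7 (0.748), Gnl3 (0.794), Ddx21 (0.785) and Nat10 (0.77). The genes share the array of that mouse and are not independent. In D257A mice, 2-30M was set apart above the others for Npm1 (0.727) and below them for Bop1 (0.715). The ratio is relative to the range and does not give the size of the gap. For Npm1, 2-30M read 14351 and the other D257A mice 12809 to 13212. Also apart were 2-27M, low for Nop58 (0.747), 2-17M, low for Bysl (0.762), and 2-21M, high for Noc2l (0.801).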

How the results depend on the processing

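The number of members higher in D257A, 2 with all mice, was 1 without scaling, 4 with each array centred on its median, 1 with no variance trend, 10 with array weights, 1 by the methods' t-test, 5 with the mice numbered 2 alone, 1 with mouse series as a block, and 1 to 13 with each mouse left out. The share of all tested genes that were higher moved as well, from 3.71% to 1.6%, 7.49%, 2.23%, 8.89%, 2.34%, 4.38% and 1.27% in the same order, and to between 1.92% and 7.76% with each mouse left out. The number of member probe sets higher, 3, was 1, 11, 1, 18, 1, 9 and 1 under the same settings, and 1 to 21 with each mouse left out. The other ribosome biogenesis genes higher, 4, were 1 without scaling, 10 with median centring, 1 with no trend, 19 with array weights, 7 with the mice numbered 2 alone, 0 with the block, and 2 to 23 with each mouse left out. The 1 lower gene became 0 with median centring, no filter, no trend, the methods' t-test, the mice numbered 2 alone, the block and the mean of all probe sets, and 0 to 1 with each mouse left out. The highest of these leave-out counts came without WT mouse 1-13M. With 1-13M left out and no scaling, quantile normalization or median centring, settings chosen after seeing the data, 7, 14 and 21 members, 12, 22 and 34 member probe sets and 13, 24 and 41 other genes were higher. Of all tested genes 5.46%, 8.18% and 13.6% were then higher. No member was lower under any of these settings. The median log2 difference of the members stayed above 0, from 0.12 to 0.44. Of 961 values of single genes under alternatives, 877 kept their side of the threshold, 59 lost it, 25 gained it and 0 called ones changed sign. No paired analysis was possible because the labels give the genotypes no shared replicate numbers. The number of arrays, 5 per genotype, limits the precision.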
